A study of Mus musculus with 4 samples.

Results

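Dux and 9 other genes that are transcribed at the 2-cell (2C) stage of the mouse embryo were followed in mouse E14 embryonic stem cells (ESCs), with and without a knockout of Pim3. The genes were taken by name as rows of the gene count table, 10 of its 55418 genes: Duxf3, under which Dux is listed, Zfp352, Sp110, Tcstv1, Tcstv3, Gm4340, Usp17la, Usp17lc, Usp17ld and Usp17le. RNA was sequenced from 2 wild-type (WT) ESC cultures and from 2 lines of the genotype Pim3-/-, 4 libraries in all, of the strain given as 12910la. The Pim3-/- lines were made with CRISPR/Cas9 and each is 1 clone, so that a difference between the groups and a difference between clones cannot be told apart. Both groups were grown on gelatin in serum with LIF, the cytokine that keeps ESCs undifferentiated, and neither was given a further agent. The libraries held 22029427 to 25668307 gene counts. All 8 markers of ESCs examined had counts in each library, with a sum of 4434 to 6284 CPM (counts scaled to a common library size). Pim3 itself had 4392 and 4953 counts in WT against 4970 and 4804 in the Pim3-/- libraries. The paper reports bases deleted or inserted at the sites of the guides, whereas the count takes in the whole transcript. The count therefore cannot check the labels, and every direction given is the one between libraries as they are labelled.

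Cells with features of the 2C embryo arise in small numbers in ESC cultures. They transcribe the endogenous retrovirus MuERVL and a set of genes that other ESCs keep silent, and the double-homeodomain factor DUX, the product of Dux, binds and activates many of these genes and the LTR of MuERVL. Many of the genes lie in arrays of near-identical copies. In bulk RNA, more cells of this kind and more RNA per cell cannot be told apart.

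The sequence before the start site was read for those genes that RefSeq lists on GRCm38.p6, which gave 8 windows for 7 of the 10 genes (Sp110 has 2 start sites). Each window runs from 250 bases before to 50 bases after the start site, and only the part before it is shown, 5′ to 3′ on the strand of the gene. The motif GATTNAATC, the core of the site that DUX binds and its own reverse complement, occurred in the windows of Duxf3 and Gm4340, 2 of the 7 genes, against 88 of all 32851 windows (0.268%) and 4 of the 27 windows of other 2C genes. Upstream of Duxf3 (chr10:58233090-58233339, minus strand) the motif is shown in capitals and begins 139 bases before the start site.

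Duxf3: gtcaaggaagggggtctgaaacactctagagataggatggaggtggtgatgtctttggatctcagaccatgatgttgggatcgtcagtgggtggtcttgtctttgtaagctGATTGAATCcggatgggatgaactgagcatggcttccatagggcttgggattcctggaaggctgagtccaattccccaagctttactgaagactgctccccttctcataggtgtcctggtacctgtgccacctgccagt

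A run of 15 bases, AACACACCTTTAATC, was shared by the windows of Zfp352 (chr4:90218570-90218819, plus strand), of the distal start site of Sp110 (chr1:85603892-85604141, minus strand) and of Gm4340 (chr10:104193792-104194041, plus strand). It was noticed on reading these windows, so its presence in them is a description. Without its first base, the run also occurs in the forward primer that the paper lists for MT2B2. Whether repeats overlap these windows was not examined. Counted only before the start site, it occurs in 23 of the 32851 windows (0.0700%), with the windows named here among them. The 2 windows that hold it 3 or more times are those of Zfp352 and Sp110 themselves. It was in none of the 27 windows of other 2C genes. These windows are shown because the run, in capitals, is repeated within each.

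Zfp352: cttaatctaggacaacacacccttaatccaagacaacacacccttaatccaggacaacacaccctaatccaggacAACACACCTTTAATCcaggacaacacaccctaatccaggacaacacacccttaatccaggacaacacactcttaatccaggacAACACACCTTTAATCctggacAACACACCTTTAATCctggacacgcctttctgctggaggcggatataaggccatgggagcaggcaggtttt
Sp110: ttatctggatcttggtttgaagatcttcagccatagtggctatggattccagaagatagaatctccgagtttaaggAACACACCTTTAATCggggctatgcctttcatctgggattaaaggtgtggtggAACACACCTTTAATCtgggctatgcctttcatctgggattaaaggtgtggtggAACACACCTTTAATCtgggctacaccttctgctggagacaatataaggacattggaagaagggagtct
Gm4340: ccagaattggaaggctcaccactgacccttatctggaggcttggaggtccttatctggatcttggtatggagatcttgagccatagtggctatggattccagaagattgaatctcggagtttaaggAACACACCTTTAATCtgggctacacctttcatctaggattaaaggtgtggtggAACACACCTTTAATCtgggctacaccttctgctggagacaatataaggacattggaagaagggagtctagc

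Zfp352 and Sp110 held 3 copies each and Gm4340 held 2. The windows of Sp110 and Gm4340 were alike over a longer distance, with an identical run of 86 bases that ends near the start sites. In Gm4340 the DUX motif, in the form GATTGAATC, begins 146 bases before the start site. The upstream end of the Sp110 window overlaps an exon of Gm10552, annotated as antisense. The windows of the Usp17l genes held neither run, but resembled each other. Those of Usp17la and Usp17ld share the 76 bases below, and those of Usp17lc and Usp17ld share a run of 65 bases.

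Usp17la and Usp17ld: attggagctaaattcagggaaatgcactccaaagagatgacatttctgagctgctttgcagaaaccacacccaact

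In the libraries labelled Pim3-/-, 9 of the 10 genes were called higher and 0 lower (edgeR's quasi-likelihood test, Benjamini-Hochberg adjusted p under 0.05 over all 18444 tested genes). Of all tested genes, 17.6% were called higher and 16.2% lower, and 22.2% of the 7285 tested genes in the same range of mean expression were called higher. Each of the 10 had a positive fold change, and the 1 that was not called was Tcstv1, at an adjusted p of 0.0509. The Wald test of DESeq2 called 7 higher (12.9% of all genes it tested) and 0 lower. For all 10 genes both Pim3-/- libraries stood above both WT libraries, which held for 38.3% of tested genes. The median log2 fold change of the 10 genes was 2.50, against 0.07 for all tested genes and 0.31 in the range of expression. With WT replicate 1 or WT replicate 2 left out, 5 and 4 of the 10 were called higher, against 2.03% and 2.95% of all tested genes in those fits, and the median of the 10 was 2.67 and 2.24. Zfp352, Sp110, Gm4340 and Usp17ld lost their calls in both of these fits, Duxf3 without WT replicate 1 and Tcstv3 without WT replicate 2, while Tcstv1 was called without WT replicate 1.

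**Figure D1:**
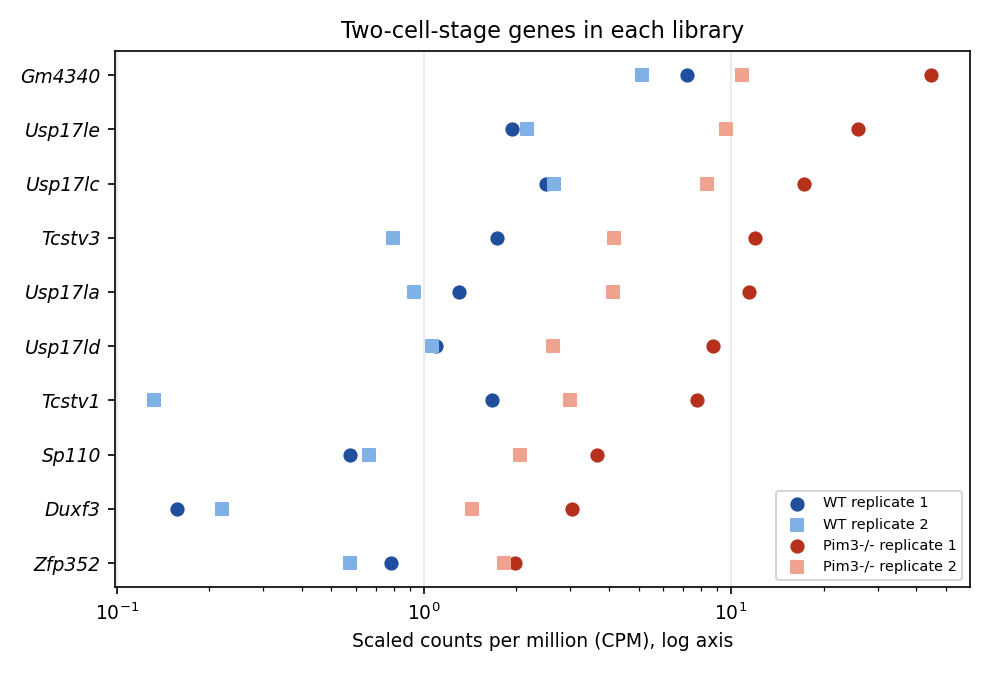
Scaled counts (CPM, log axis) of the 10 2C genes in each of the 4 libraries, 1 point per library. In every row both red Pim3-/- points lie to the right of both blue WT points, Pim3-/- replicate 1 lies farthest right, and the Pim3-/- points of Zfp352 nearly coincide.

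Duxf3 encodes DUX. WT replicates 1 and 2 held 3 and 5 counts, and Pim3-/- replicates 1 and 2 held 81 and 37, which makes 0.19 CPM ± 0.045 and 2.24 CPM ± 1.13 (SD, n = 2 each). The groups were far apart, and the WT level rested on 8 counts in all. Both WT counts were under the filter's minimum, so Duxf3 passed it through the Pim3-/- libraries alone and could hardly be called lower. The log2 fold change of Duxf3 (3.52, standard error (SE) 0.61, edgeR adjusted p = 0.00742) was the largest of the 10 genes, and the ratio of the summed scaled counts was 11.7 with an exact 95% interval of 5.77 to 27.8, which covers counting error only. Without WT replicate 1 the call was lost (log2 fold change 3.25, edgeR adjusted p = 0.0576).

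Duxf3 lies on chr10 (58229979 to 58232675 in GRCm38, minus strand) among copies of itself, and 24.2% of the 100-base stretches of its transcripts also occur in another annotated gene. AW822073, the neighbouring double-homeobox gene 5049 bases away, shares most of these, and rose with counts of 3, 5, 61 and 26 in WT replicates 1 and 2 and Pim3-/- replicates 1 and 2 (log2 fold change 3.08, edgeR adjusted p = 0.0121). The pseudogene Gm10807 had 1, 5, 39 and 7 counts, and Gm4981 had 0, 1, 49 and 5. Both stayed under the filter on low counts. Among these copies, Gm4981 differed most between the Pim3-/- libraries, with nearly all of its counts in replicate 1. Summed, the 4 copies had 7, 16, 230 and 75 counts and a log2 fold change of 3.39 (edgeR adjusted p = 0.00863). AW822073 was the 1 gene of a list of 10 double-homeobox genes that was tested, and Duxbl1 and Duxbl2 had at most 2 counts in any library.

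Zfp352 encodes a zinc finger protein. It lies on chr4 (90218820 to 90225702, plus strand), and shares 0.64% of its stretches with another gene, the lowest share of the set. The WT pair held 15 and 13 counts and the Pim3-/- pair 53 and 47, which makes 0.679 CPM ± 0.148 and 1.90 CPM ± 0.115 (SD, n = 2 each). The Pim3-/- libraries were close to each other here. The log2 fold change of 1.49 (SE 0.43, edgeR adjusted p = 0.0331) was the smallest of the 10, and the Wald test of DESeq2 did not call it (adjusted p = 0.098).

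Sp110, a nuclear protein of the Sp100 family, lies on chr1 (85576899 to 85598817, minus strand). Counts stood at 11 and 15 in WT and at 98 and 53 in Pim3-/- libraries, or 0.618 CPM ± 0.062 against 2.86 CPM ± 1.14 (SD, n = 2 each). The groups did not overlap, and the log2 fold change was 2.20 (SE 0.46, edgeR adjusted p = 0.0125). Reads of Sp110 can be shared with other genes, since 17.5% of its stretches recur elsewhere, most of them in Gm16026. Its 3′ end overlaps G530012D18Rik, which had at most 4 counts in any library.

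Next to Sp110, 1561 bases away, the related Sp140 rose from 5 and 2 counts to 52 and 26 (log2 fold change 3.09, edgeR adjusted p = 0.014). Sp100 itself had 0 counts in both WT and 2 in both Pim3-/- libraries, each below the 3 counts per library that a count of 0 allows. Csprs, the other gene of the family list, had 0 counts in every library.

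Tcstv1 and Tcstv3, named for their variable transcription at the 2C stage, lie on chr13 (119893388 to 119894785, minus strand, and 120316878 to 120318178, plus strand). For Tcstv3, WT gave 33 and 18 counts and Pim3-/- gave 319 and 107, or 1.26 CPM ± 0.656 against 8.05 CPM ± 5.52 (SD, n = 2 each), and the log2 fold change was 2.69 (SE 0.59, edgeR adjusted p = 0.0138). For Tcstv1, WT gave 32 and 3 counts and Pim3-/- gave 207 and 77. The WT libraries thus differed in Tcstv1, by a ratio of 12.6 (exact 95% interval 3.95 to 64.4), more than in any other of the 10 genes. Its log2 fold change was 2.61 with a SE of 0.86, and 5.23 without WT replicate 1 or 1.59 without WT replicate 2. With the counts of both genes summed (65, 21, 526 and 184) the log2 fold change was 2.65 (edgeR adjusted p = 0.0197). They share 50 of their stretches with each other, 3.58% of those of Tcstv1 and 7.35% of those of Tcstv3.

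Gm4340 was the most abundant of the 10. It lies on chr10 (104194042 to 104196522, plus strand) and went from 138 and 116 WT counts to 1194 and 279 Pim3-/- counts, or 6.16 CPM ± 1.47 against 27.8 CPM ± 24.0 (SD, n = 2 each). Replicate 1 alone held most of the Pim3-/- counts. The log2 fold change was 2.18 (SE 0.59, edgeR adjusted p = 0.0267), the Wald test of DESeq2 did not call it (adjusted p = 0.0804), and without Pim3-/- replicate 1 it was 0.80.

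Of the stretches of Gm4340, 94.7% occur in each of 6 further genes, so its count cannot be assigned to 1 locus. Of these, Gm21304 had 38, 2, 504 and 7 counts, Gm6763 had 37, 45, 155 and 77, and Gm21293, which overlaps Gm6763, had the same counts as Gm6763 in each library. Gm20765 had at most 8 counts, and Gm8764 and Gm21312 had 0. Summed over the 7 genes, which may enter the reads of that overlapping pair more than once, the counts were 250, 210, 2016 and 442, with a log2 fold change of 2.06 (edgeR adjusted p = 0.0331).

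**Figure D2:**
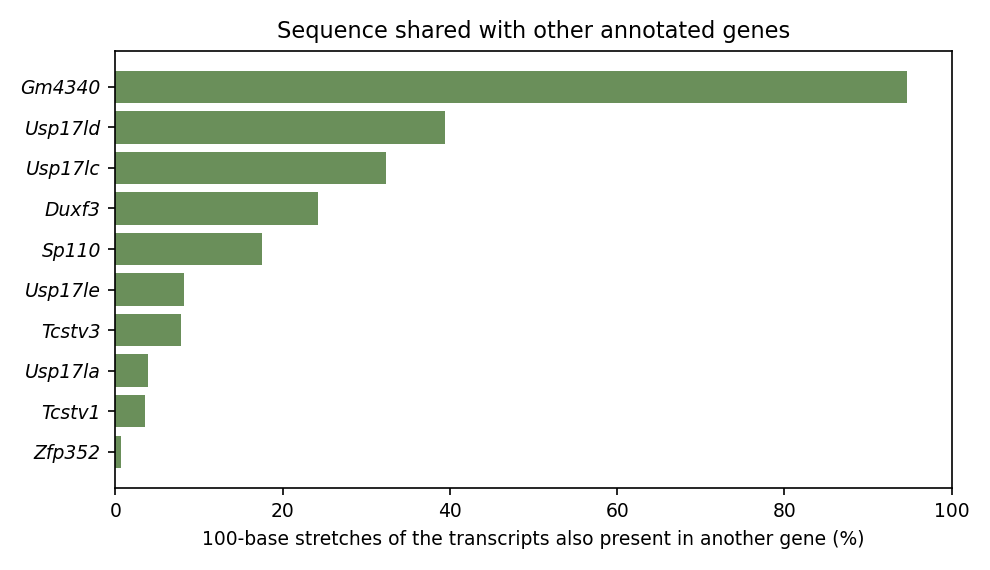
Share of the 100-base stretches in the transcripts of each of the 10 2C genes that also occurs in another annotated gene (%). The bars run from 0.64% for Zfp352 to 94.7% for Gm4340.

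The Usp17l genes encode deubiquitinating enzymes of the USP17 family and all lie on chr7. Usp17le (104768049 to 104777470, minus strand) went from 37 and 49 WT counts to 689 and 249 Pim3-/- counts, the largest change of the family (log2 fold change 3.11, SE 0.48, edgeR adjusted p = 0.00558). Usp17la (104857009 to 104862667, plus strand) had 25 and 21 counts against 306 and 106 (log2 fold change 2.81, SE 0.53, edgeR adjusted p = 0.00945). In both genes the lower Pim3-/- library exceeded the WT libraries by a wide margin.

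The other 2 members of the family lie apart from these on chr7. Usp17lc (103415072 to 103419880, plus strand) had 48 and 60 counts against 461 and 215 (log2 fold change 2.31, SE 0.38, edgeR adjusted p = 0.00672). Usp17ld (103249737 to 103252505, minus strand) had 21 and 24 counts against 233 and 68 (log2 fold change 2.39, SE 0.58, edgeR adjusted p = 0.0188). Usp17lc and Usp17ld share 745 stretches, 32.3% and 39.5% of their own, so that reads could be exchanged between them. Usp17lb, a further gene of the family, had 53 and 50 counts against 377 and 144. The 5 genes summed to 184, 204, 2066 and 782 counts, with a log2 fold change of 2.53 (SE 0.41, edgeR adjusted p = 0.00608).

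Within that sum, Usp17le made up 20.1% (Wilson 95% interval 15.0 to 26.5) and 24.0% (18.7 to 30.3) in WT replicates 1 and 2, and 33.3% (31.3 to 35.4) and 31.8% (28.7 to 35.2) in Pim3-/- replicates 1 and 2. Usp17lb made up 28.8% (22.7 to 35.7) and 24.5% (19.1 to 30.8) in WT and 18.2% (16.6 to 19.97) and 18.4% (15.9 to 21.3) in Pim3-/- libraries. The share of Usp17le was thus higher, and that of Usp17lb lower, in both Pim3-/- libraries than in both WT libraries. The difference in shares was not tested. The intervals cover counting error only.

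**Figure D3:**
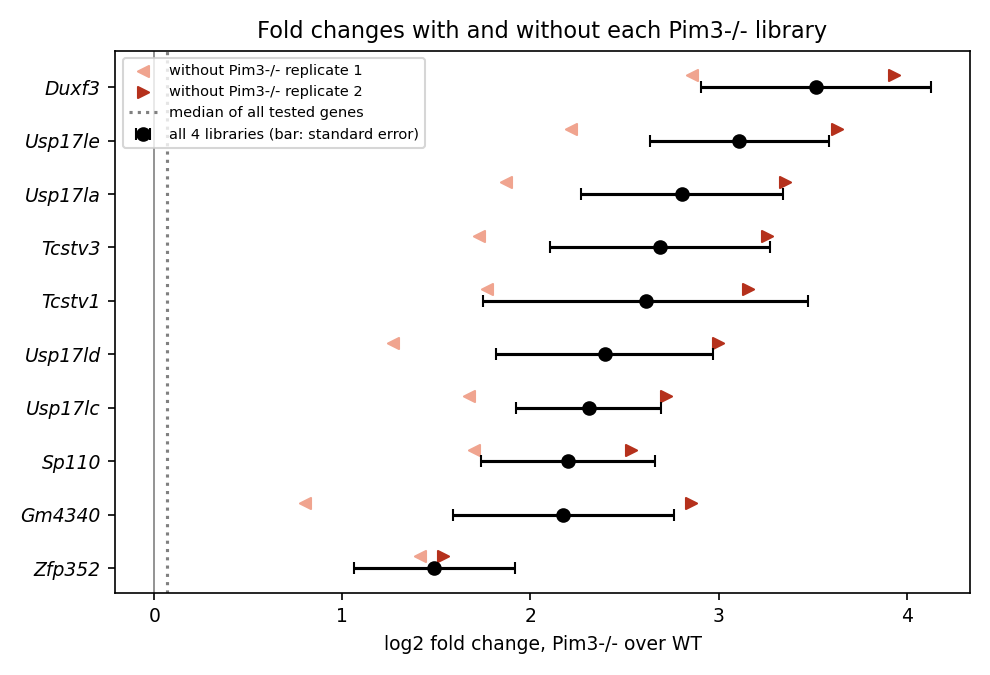
Fitted log2 fold change of each 2C gene, Pim3-/- over WT, from all 4 libraries (black, bar: standard error) and with either Pim3-/- library left out (triangles); the dotted line is the median of all tested genes, 0.07. All points lie to the right of 0, from 0.80 for Gm4340 without replicate 1 to 3.94 for Duxf3 without replicate 2.

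Leaving out Pim3-/- replicate 1 lowered the fitted fold change in each of the 10 genes, by more than 1.5 times in 8 of them. The log2 fold changes then were 2.86 for Duxf3, 1.77 for Tcstv1, 1.72 for Tcstv3, 0.80 for Gm4340, 1.87 for Usp17la, 1.67 for Usp17lc, 1.27 for Usp17ld and 2.21 for Usp17le, while Zfp352 (1.41) and Sp110 (1.70) moved less. Without Pim3-/- replicate 2 the fold change was more than 1.5 times higher in 2 genes, at log2 values of 2.85 for Gm4340 and 2.996 for Usp17ld. The direction was the same in each of these fits.

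The Pim3-/- libraries differed from each other in these genes. The ratio of scaled counts, replicate 1 over replicate 2, had a median of 2.63 over the 10 genes, and it was over 2 in 8 of them, against 5.33% of all tested genes, whose median ratio was 1.03. It was highest for Gm4340, at 4.13 (exact 95% interval 3.63 to 4.73), and for Usp17ld, at 3.31 (2.52 to 4.40). Zfp352 was the 1 gene whose interval reached 1, with a ratio of 1.09 (0.721 to 1.65). Sp110 stood at 1.79 (1.27 to 2.54) and Duxf3 at 2.11 (1.42 to 3.21). MuERVL followed the same order of libraries, with a smaller ratio in its internal part MERVL-int (1.48, interval 1.43 to 1.53) than in its LTR, MT2_Mm (1.98, interval 1.90 to 2.06). All these intervals cover counting error only, and the labels do not say which clone either replicate is.

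**Figure D4:**
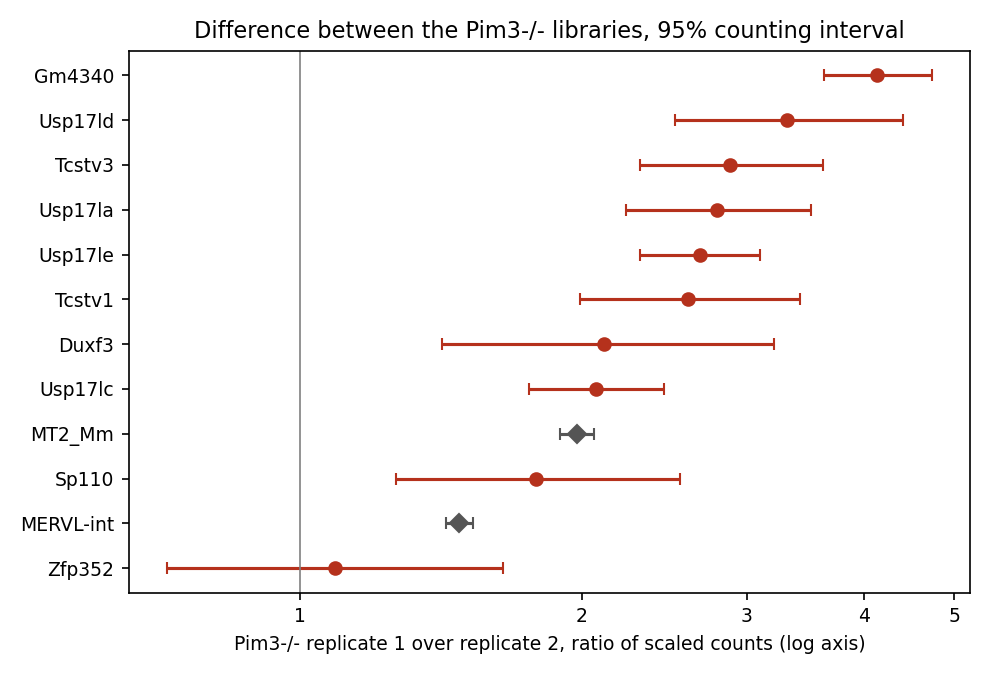
Ratio of scaled counts between Pim3-/- replicate 1 and replicate 2 (log axis) for the 10 2C genes (red) and the MuERVL parts MERVL-int and MT2_Mm (grey), with exact 95% intervals for counting error. The intervals lie above 1 except that of Zfp352, and Gm4340 is highest at 4.13.

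Over the groups, MERVL-int went from 1132 and 1584 WT counts to 8868 and 6194 Pim3-/- counts, a log2 fold change of 1.89 (SE 0.16, edgeR adjusted p = 2.6e-04 on the TE table). That call was lost when either WT library was left out (adjusted p = 0.358 and 0.242), with values of 1.83 and 1.96.

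Per length of exon, in CPM per kilobase, Gm4340 was highest in both groups, with 4.73 ± 1.13 in WT and 21.3 ± 18.4 in Pim3-/- (SD, n = 2 each). In WT, Tcstv3 (1.62 ± 0.843), Usp17lc (1.05 ± 0.041), Usp17le (1.03 ± 0.083), Tcstv1 (0.645 ± 0.778) and Usp17ld (0.543 ± 0.013) followed. From Tcstv3 to Usp17ld the libraries of each gene overlapped those of the next, and Gm4340 was separate. Usp17la (0.42 ± 0.101), Zfp352 (0.298 ± 0.065), Sp110 (0.0912 ± 0.0092) and Duxf3 (0.07 ± 0.017) came last, each separate from the gene before it. In Pim3-/- libraries the order was Gm4340, Tcstv3 (10.3 ± 7.08), Usp17le (8.93 ± 5.75), Usp17lc (5.22 ± 2.57), Tcstv1 (3.84 ± 2.41), Usp17la (2.93 ± 1.96), Usp17ld (2.86 ± 2.17), Zfp352 (0.837 ± 0.051), Duxf3 (0.829 ± 0.419) and Sp110 (0.422 ± 0.168). Only Usp17ld and Zfp352 were separate from each other among neighbours in that order, and Duxf3 was among the 3 lowest in both groups.

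Of the 86 other annotated genes within 100 kb of a member, 15 passed the filter, of which 7 were called higher and 1 lower, against 17.6% and 16.2% of all tested genes. The higher ones were AW822073, Sp140, the antisense gene Gm17017 (1 and 0 counts against 15 and 14, so that no fold is given), Gm21761 next to Tcstv1 (log2 fold change 2.19), BC147527 (2.26) and AF067061 (2.10) next to Tcstv3, and Usp17lb (1.99). Several of these are themselves 2C genes or relatives of their neighbour. AW822073, Sp140 and Gm17017 were under the filter's minimum count in both WT libraries. They passed it through the Pim3-/- libraries alone and could hardly be called lower, so the share of all tested genes is no measure for them. The 1 gene that fell was Gcc2, 22822 bases from Duxf3, which encodes a golgin (386 and 560 counts against 303 and 320, log2 fold change -0.92, edgeR adjusted p = 0.0145).

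The tested genes whose pattern over the 4 libraries was nearest to the mean of the 10 (Euclidean distance of centred log2 CPM) were Acan (distance 0.14), Olfr374, A530040E14Rik, Gm43691, Gm2061, Igfbp5, Gm5989 and Gm47096 (0.276), where the median distance of all tested genes was 2.53. A530040E14Rik shares 33 stretches with Sp110. Nearest to Duxf3 alone were Gata6 (0.106), Magel2, AC140365.1, Car12 and Cacna1s (0.27). The likeness is over 4 points and is a description.

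A list of 62 other 2C genes, some of them copies or neighbours of the 10, was read in the same fit. Of 39 tested, 28 were called higher and 0 lower (0 lower also at an unadjusted p under 0.05 and in the Wald test of DESeq2), against 17.6% and 16.2% of all tested genes, with a median log2 fold change of 2.17. With WT replicate 1 or 2 left out, 13 and 14 were called higher, against 2.03% and 2.95% of all tested genes. Those with the largest changes were B020004J07Rik (2 and 0 counts against 35 and 15, a ratio of 19.9 with an interval of 5.23 to 169.0), Zscan4b, Zscan4e, Zscan4f and Tmem92. Of the Zscan4 genes, which act at telomeres, Zscan4e rose from 12 and 31 counts to 615 and 175 (log2 fold change 3.87, edgeR adjusted p = 0.00681) and Zscan4f from 22 and 26 to 598 and 160 (3.63). Zscan4b (3.92) and Tmem92 (3.55) rose likewise. Some of the list, such as B020004J07Rik and Zscan4b (5 and 7 counts in WT), passed the filter through the Pim3-/- libraries alone. Such genes could hardly be called lower.

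**Figure D5:**
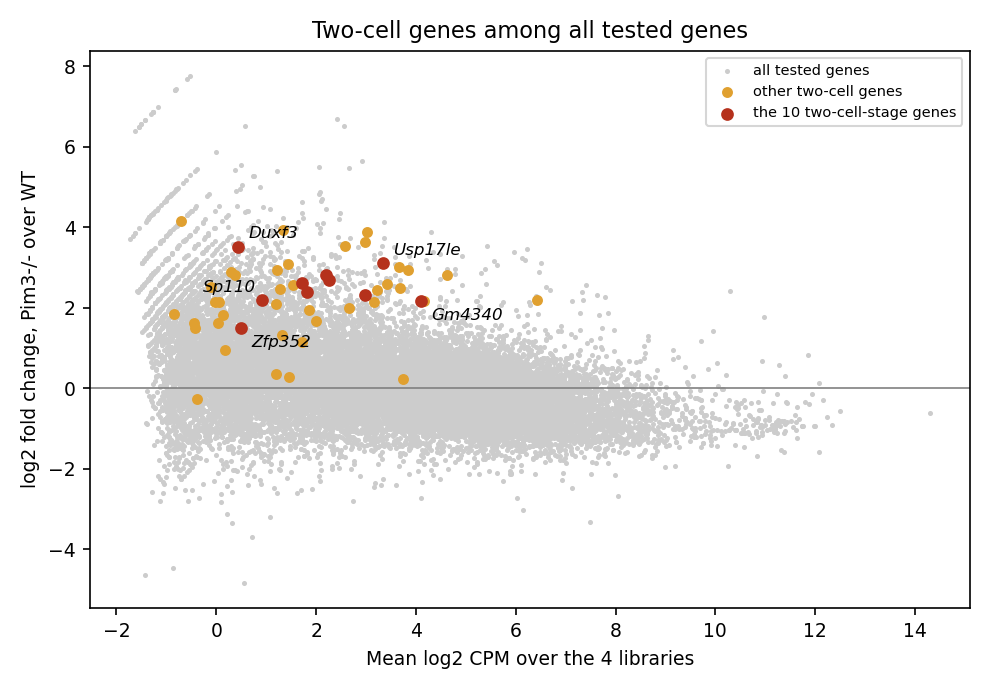
Mean log2 CPM over the 4 libraries against the fitted log2 fold change (Pim3-/- over WT) for all 18444 tested genes (grey), 39 other 2C genes (yellow) and the 10 2C genes (red). The red points lie between 1.49 and 3.52, above most grey points at their expression.

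Among genes listed as regulators of Dux, the calls depended on the scaling and on single libraries, and 16.2% of all tested genes were called lower. Whether each listed gene, Usp7 among them, activates or represses Dux was not tested. Of 6 listed as activators, 0 were called higher and 3 lower by edgeR with TMM factors, and 1 each with library totals. With TMM factors, 1 was higher and 3 lower at an unadjusted edgeR p under 0.05. The Wald test of DESeq2 called 0 higher and 3 lower. The 3 were Dppa4, which binds the Dux promoter (4765 and 5402 counts against 3044 and 2452, log2 fold change -1.22, or -0.77 with totals), the deubiquitinase Usp7 (-0.84) and Trp53 (-0.75). Dppa2, the partner of Dppa4, was at -0.34 (edgeR adjusted p = 0.318). Nelfa, at 0.64 (edgeR adjusted p = 0.0911), was called higher with library totals (1.10). Of 15 listed as repressors, 0 were called higher and 3 lower, namely the chromatin assembly subunit Chaf1b (-0.92), nucleolin, Ncl (-0.93), and the histone methyltransferase Ehmt2 (-0.67). At an unadjusted edgeR p under 0.05, 0 were higher and 4 lower. The Wald test also called 0 higher and 4 lower, where it called 16.9% of all genes it tested lower. Trim28 was the gene added under both rules. With library totals 0 repressors were called lower and 3 higher, where 5.92% of all tested genes were called lower and 35.8% higher, and the median log2 fold change of all tested genes was 0.52 in place of 0.07. Leaving out single libraries changed the number of activators and of repressors called lower, and it changed the share of all tested genes called lower as well. At 3 of 15, the repressors called lower are near the share of all tested genes.

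Markers of other cell types were examined beside these results. All 6 tested markers of primitive endoderm, an extraembryonic layer, were called higher, against 17.6% of all tested genes, and the summed level of the 7 was 2.98 and 5.12 CPM in WT and 33.8 and 18.7 CPM in Pim3-/- replicates 1 and 2. Gata6 had 11 and 19 counts against 240 and 112, and Foxa2 had 0 counts in both WT libraries. Sox17 (1 and 5 counts against 85 and 10) and Sox7 (3 and 0 against 91 and 67) were under the filter's minimum in both WT libraries. They passed it through the Pim3-/- libraries alone and could hardly be called lower, so the share of all tested genes is no measure for them. The sum for the 10 2C genes was 19.0 and 14.3 CPM in WT and 136.4 and 48.02 CPM in Pim3-/- libraries, with replicate 1 highest in both. Of 6 trophoblast markers 4 were tested and Eomes alone was called (higher). At an unadjusted edgeR p under 0.05, 2 were higher and 1 lower. The sums were 73.0 to 81.0 CPM in all libraries, and most of this was Krt8 and Krt18. These 2 were lower (log2 fold change -0.17 and -0.58), while Eomes (2.24) and Hand1 (1.44) were higher. Of 2 tested fibroblast markers 0 were called by edgeR (0 also at an unadjusted p under 0.05 and in the Wald test). Among the 8 ESC markers Klf4 was called higher, and Pou5f1, Nanog and Utf1 were called lower, against 17.6% and 16.2% of all tested genes. With library totals, 35.8% of all tested genes were called higher and 5.92% lower, and their median log2 fold change was 0.52. In that fit Nanog (log2 fold change -0.45) and Utf1 (-0.51) were not called. Sox2 (0.83) and Tdgf1 (0.79) were called higher there, as were Hand1 (1.87) of the trophoblast and Col1a1 (1.54) of the fibroblast list. Klf4, Pou5f1, Eomes and the primitive endoderm markers kept their calls. The part of these cell types in the change of the 2C genes was not tested.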

How the data were processed

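RNA-seq of 2 WT and 2 Pim3-/- E14 ESC libraries (mRNA kit, bulk RNA) was analysed from the raw count tables, of genes and of TE subfamilies, that the authors deposited. The paper's methods name Cutadapt, Hisat2 and mm10 with Ensembl genes and RepeatMasker TEs, whereas the submitters' processing notes name Trim Galore, STAR, featureCounts and GRCm38. Strand use and the treatment of reads with several locations are not given in the sources used here, which bears on genes with near-identical copies and on overlapping genes.

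Low counts were filtered in edgeR 4.0.16 with filterByExpr at a minimum count of 10 and a minimum total of 15. This left 18444 of 31418 genes that had any count. A gene under the minimum in both WT libraries could pass through the Pim3-/- libraries alone, and could then hardly be called lower. Groups were compared by edgeR's quasi-likelihood test with TMM factors in R 4.3.3, with Benjamini-Hochberg adjustment across every gene, or TE, that was tested. CPM are scaled by the same totals. The method was tested on simulated counts. Alternatives were DESeq2 1.42.0 (size factors, Wald test), library totals, other filters, a replicate block, omission of each library, and summed families or, added after the data were seen, summed copies. The floor is 3 counts per library.

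The members and lists were chosen with earlier results of these data known. All 10 members are named. Of longer lists the 5 called genes with the largest change in each direction are named, of neighbours those called, and of copies those sharing 100-base stretches of GENCODE transcripts. Promoter windows and builds are from RefSeq (GRCm38.p6), and windows of Tcstv1, Tcstv3 and Usp17le were not analysed here.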

Additional observations from a re-analysis of the deposited data

How the results depend on the processing

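The log2 fold changes of the 10 genes were positive in every fit tried, and 0 were called lower in any. With a library left out, a group holds 1 library that is assumed to vary like the other group. The share of all tested genes called higher was 2.03% without WT replicate 1 and 2.95% without WT replicate 2. It was 28.3% without Pim3-/- replicate 1 and 25.5% without Pim3-/- replicate 2, so counts of calls from these fits cannot be compared without these shares. Then 4 to 10 of the 10 genes were called higher, 5 without WT replicate 1 and 4 without WT replicate 2. Of the other 2C genes 13 were called without WT replicate 1, 14 without WT replicate 2 and up to 39 otherwise. The upper ends of both ranges came from fits without a Pim3-/- library, and the 39 from the fit without Pim3-/- replicate 2. That fit tested a different set of genes, and how many of the list it tested is not given. The 39 is therefore not a share of the genes of the list tested with all 4 libraries. For MERVL-int the log2 fold change was 1.57 to 2.15 over all fits with a library left out. The other settings called 7 (DESeq2 Wald test, with 12.9% of all tested genes called higher) to 10 of the genes. All 10 were called with library totals (35.8% of all tested genes), without a filter other than 1 count (9.1%) and with a replicate block (18.5%). Of the 8 that passed a filter of 10 counts in every library, 8 were called (16.9%), as were 6 of 6 units with families summed. Over all tested genes, 3246 were called higher and 2987 lower, against 6606 and 1092 with library totals. A block for the replicate number called 10 of the genes. The correlation of the deviations of same-numbered libraries was 0.02, with 2 pairs, so the numbers were not taken to pair the samples. Duxf3 had 8 counts in WT, which limits the precision of its fold change.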
